A study of Mus musculus with 2 samples.

Results

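Actins are the proteins whose filaments give a cell its shape and let muscle contract, and the mouse genome encodes 6 of them. The 6 genes examined here were Acta1 (skeletal muscle alpha-actin), Acta2 (smooth muscle alpha-actin), Actc1 (cardiac alpha-actin), Actg2 (smooth muscle gamma-actin) and the cytoplasmic actins Actb and Actg1. They were found by gene name among the spots that are not controls. They took 10 probes and 19 spots on each array, and were 6 of the 23437 genes measured.

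RNA came from ureters dissected from NMRI mouse embryos at stage E18.5. Mutant embryos (cDKO) were Tbx18(cre/+), Tbx2(fl/fl) and Tbx3(fl/fl), so that Cre came from 1 Tbx18 allele and both floxed genes were homozygous. Controls were Tbx18(+/+), Tbx2(fl/?) and Tbx3(fl/?), which leaves their other allele unstated, and carried no Cre. In the ureter Tbx18 is known as a gene of the mesenchyme, so the urothelium, the epithelial lining, is not expected to undergo deletion, and the Cre allele leaves 1 unmodified Tbx18 allele. Each of 2 two-colour Agilent arrays held cDKO and control RNA. Replicate 1 was labelled male with cDKO in AlexaFluor647 (red), and replicate 2 was labelled female with the dyes exchanged, so that sex, dye orientation and replicate cannot be told apart. The arrays are called the male and the female array, and their ratios those for males and females, by these labels only. Both lay on 1 slide, and how many embryos gave each RNA is not stated in the labels. The p-values combine a gene's spread between these 2 arrays with a variance shared over all probes. They rest mostly on the shared part (1 residual and 13.9 prior degrees of freedom), and how far they cover the spread between embryos is unknown.

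Muscle actins form the thin filaments on which myosin pulls, and cytoplasmic actins form the cortex, stress fibres and junctions of nearly every cell. The actin proteins are almost identical, and their genes differ mainly in where and when they are transcribed. Adult ureteric smooth muscle is known for Acta2 and Actg2, while Acta1 and Actc1 are named for the skeletal and heart muscle in which they dominate, and both are also made in developing smooth muscle. Transcription of muscle actins depends on serum response factor, which binds CArG boxes, and on its partners myocardin and the MRTF proteins. MRTF proteins bind actin monomers, which ties their activity to the state of the filaments.

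Between 72.1% and 81.6% of gene spots were well above background in each of the 4 RNAs, and the 2 arrays' log2 ratios correlated at a Pearson r of 0.486 across genes, which are not independent replicates. Transcripts of the Y chromosome went against 1 label: in the RNA labelled female cDKO the signal was 360 for Ddx3y and 491 for Eif2s3y, against 4.46 and 13.8 in female control RNA. On the male array Ddx3y had 2851 in cDKO and 4236 in control. The 2 RNAs of the female array thus differ in Y-linked transcripts as well as in genotype label, and these cannot be told apart there. Values of the actins and of the regulators called are therefore given for each array. Tbx2 and Tbx3 were higher in cDKO, with mean log2 ratios of 0.74 ± 0.42 and 0.66 ± 0.16 (SD, n = 2 arrays, limma adjusted p = 0.0276 and 0.0307). Tbx18, of which 1 allele carries Cre in cDKO, was also higher there, with a log2 ratio of 0.81 on both arrays (limma adjusted p = 0.00784). None of the 3 was lower in the RNA labelled cDKO. The labels do not say which part of a gene is floxed or replaced, so these probes do not check the genotype.

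Because the isoforms share most of their coding sequence, the probes decide which transcript is read. Each probe is 60 bases long, and among the 35 pairs of probes for different actins the longest shared run was 8 bases. Probes were compared only with each other and not with the transcripts of the other actins. The short run therefore does not show that a probe reads only its own isoform. The Acta1 probe is shown because this skeletal isoform is not the one expected of a ureter, and its position in mm9 is chr8:126416197-126416256, minus strand.

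Acta1 probe: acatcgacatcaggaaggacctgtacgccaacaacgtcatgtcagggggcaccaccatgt

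The other muscle actins and Actb each had 1 probe, at chr19:34316060-34316119 for Acta2, chr2:113873064-113873123 for Actc1, chr6:83462904-83462963 for Actg2 and chr5:143665422-143665481 for Actb, all on the minus strand of mm9. Actg1 had 5 probes on chr11, and 3 of them overlap in the files' coordinates. Their sequences are shown because they are not fully alike over the shared stretch. In 5′ to 3′ order, probe 1 lies at chr11:120208409-120208468, probe 2 at chr11:120208371-120208430 and probe 3 at chr11:120208361-120208420, and capitals mark bases at which overlapping probes differ.

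Actg1 probe 1: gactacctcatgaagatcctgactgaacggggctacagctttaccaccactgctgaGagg
Actg1 probe 2: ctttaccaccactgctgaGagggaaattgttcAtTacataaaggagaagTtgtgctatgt
Actg1 probe 3: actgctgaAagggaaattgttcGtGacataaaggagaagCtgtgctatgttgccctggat

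Probes 1 and 2 share 22 bases with 0 mismatches. Probes 2 and 3 share 50 bases with 4 mismatches, which are G19A, A33G, T35G and T50C, with positions counted from the 5′ end of probe 2. Probes 1 and 3 share 12 bases with 1 mismatch, G57A, counted from the 5′ end of probe 1. No gene models of mm9 were used here, so exon and UTR are not given for the probes.

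All 4 muscle actins fell in cDKO ureters, to between 15.1% and 17.1% of control, and neither cytoplasmic actin passed the test. Acta1, Acta2, Actc1 and Actg2 were among the 528 genes called lower, which were 2.25% of all 23437 genes tested. All 4 also fell at least 2-fold on both arrays, as 170 genes or 0.725% did. Values called here had a limma adjusted p under 0.05 over all probes. With RNA of whole ureters, fewer smooth muscle cells and less actin RNA per cell cannot be told apart. Signals below are the scanner program's processed intensities, and levels are not compared between genes, since each has its own probe.

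Actg2, which marks visceral smooth muscle, had signals of 14877 in cDKO and 92924 in control on the male array, and of 8866 in cDKO and 62907 in control on the female array. The highest cDKO signal lay far below the lowest control signal. With 2 signals per group this is a description, and the share of all genes separated in this way was not counted. The log2 ratios were -2.61 and -2.85, with a mean of -2.73 ± 0.17 (SD, n = 2) and a 95% interval of -3.08 to -2.38. Actg2 was therefore 6.63-fold lower in cDKO (limma adjusted p = 6.02e-08), and 20 of all genes had a lower mean ratio.

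Acta2, the usual marker of differentiated smooth muscle, had 33418 in cDKO and 198301 in control on the male array, and 16925 in cDKO and 108237 in control on the female array. The control level was higher on the male array and so was the cDKO level. Log2 ratios were -2.48 and -2.81, and the mean of -2.65 ± 0.23 was 6.26-fold lower in cDKO (limma adjusted p = 8.99e-08, 95% interval -3.01 to -2.29).

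Acta1, the actin of skeletal muscle thin filaments, had 1816 in cDKO and 11028 in control on the male array, and 1381 in cDKO and 9694 in control on the female array. Its ratios were -2.52 and -2.78, with a mean of -2.65 ± 0.19, or 6.27-fold lower in cDKO (limma adjusted p = 7.87e-08, 95% interval -3.00 to -2.29). By this probe the skeletal isoform was thus lowered by about the same factor as the smooth muscle isoform. Whether the probe also reads other actins was not tested.

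Actc1, the actin of heart muscle, had 16175 in cDKO and 96313 in control on the male array, and 12968 in cDKO and 67530 in control on the female array. Its ratios were -2.63 and -2.46, and it was the one muscle actin whose ratio was lower on the male array. The mean was -2.54 ± 0.12, or 5.84-fold lower in cDKO (limma adjusted p = 1.08e-07, 95% interval -2.89 to -2.20).

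**Figure D1:**
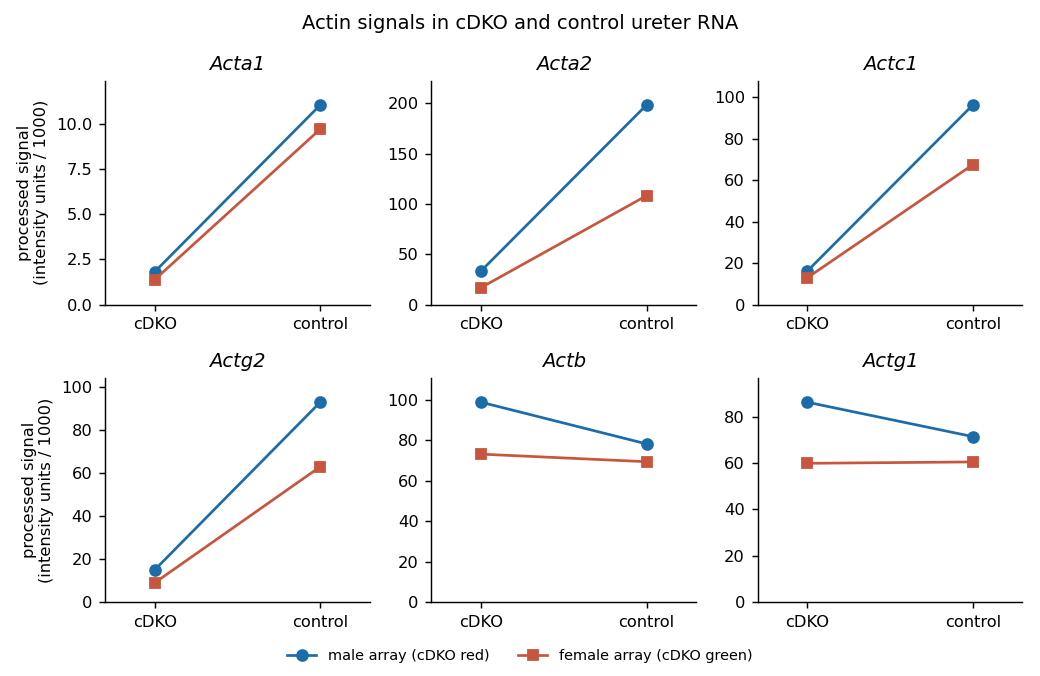
Processed signal of the 6 actins in cDKO (left) and control (right) RNA; each line is 1 array, circles male and squares female, and Actg1 is its brightest probe (vertical axes in intensity units, scaled down as labelled). Lines of the 4 muscle actins climb steeply towards control on both arrays, while those of Actb and Actg1 are nearly level or higher in cDKO; each panel has its own scale.

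Actb, the most widely used reference transcript, had 98992 in cDKO and 78309 in control on the male array, and 73234 in cDKO and 69476 in control on the female array. Its log2 ratios were 0.48 and -0.12, and the mean of 0.18 ± 0.43 did not pass the test (limma adjusted p = 0.735, 95% interval -0.20 to 0.57). The interval leaves room for a rise of 0.57 but not for a fall like that of any muscle actin. The sign on the female array depends on the normalization, since the scanner program's own processed signals give a log2 ratio of 0.076 there.

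Actg1, the other cytoplasmic actin, had 86233 in cDKO and 71370 in control on the male array, and 59832 in cDKO and 60433 in control on the female array, by its brightest probe. Its log2 ratios were 0.37 and -0.19, and the mean of 0.088 ± 0.40 did not pass (limma adjusted p = 0.903, 95% interval -0.29 to 0.47). The negative value for females came from this 1 probe, since the other 4 Actg1 probes had log2 ratios of 0.0074 to 0.11 there. By the probe used for each gene, both cytoplasmic actins had opposite directions on the 2 arrays. Such opposite directions were common, with 9450 genes or 40.3% of all genes tested.

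**Figure D2:**
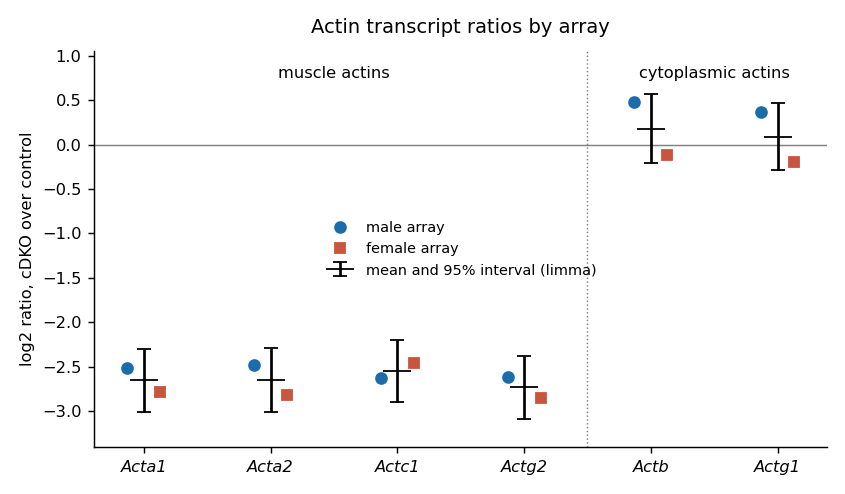
Log2 ratio of cDKO over control for each actin, with a circle for the male array, a square for the female array, and a bar with whiskers for the mean and its 95% interval from limma. The muscle actins lie between -2.85 and -2.46 on both arrays, and the cytoplasmic actins between -0.19 and 0.48.

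The gap between the muscle and cytoplasmic isoforms was similar on both arrays. The mean log2 ratio of the muscle actins was -2.56 for males and -2.72 for females, while that of the cytoplasmic actins was 0.43 for males and -0.16 for females. The muscle mean minus the cytoplasmic mean was -2.99 for males and -2.57 for females, with a mean of -2.78 ± 0.30 (SD, n = 2), a 6.85-fold difference. Expressed relative to cytoplasmic actin of the same RNA, muscle actin was lower by that factor in cDKO. The difference between the classes was not tested, since the members were chosen with earlier results known.

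The order of the muscle actins, from the lowest mean ratio, was Actg2, Acta1, Acta2 and Actc1, and neighbours were close. Acta1 minus Actg2 was 0.096 for males and 0.065 for females, small but of 1 sign. Acta1 minus Acta2 was -0.032 and 0.029, so that this pair changed places between arrays. Acta2 minus Actc1 was 0.15 and -0.35, which again changed sign. Actb minus Actg1 was 0.11 and 0.069 by the brightest Actg1 probe, and with the mean of the 5 probes Actg1 was at 0.45 for males and -0.0019 for females, so that Actb was higher for males and lower for females. The 4 muscle isoforms therefore had no order that held on both arrays beyond Actg2 lying under Acta1 and Acta2, and these differences were not tested. With median centring this order did not hold either, and Acta1 had the highest mean of the 4, -2.45.

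The spread within an array was smaller than the gap between classes. The Acta2 probe was printed 10 times. On the male array its 9 spots in use ran from -2.62 to -2.39 (SD between spots 0.077, with 1 outlier spot left out), and on the female array its 10 spots ran from -2.86 to -2.73 (SD 0.044). The spots of the female array all lay below those of the male array, and spots of 1 probe share their RNA and are not replicates. The 5 Actg1 probes gave log2 ratios of 0.31 to 0.66 for males and of -0.19 to 0.11 for females. Their means ran from 0.088 to 0.34, and 0 of the 5 passed the test (limma adjusted p from 0.409 to 0.903). Probe 3, which carries the 4 mismatches to probe 2, had a mean of 0.18, and probe 2 had 0.22.

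**Figure D3:**
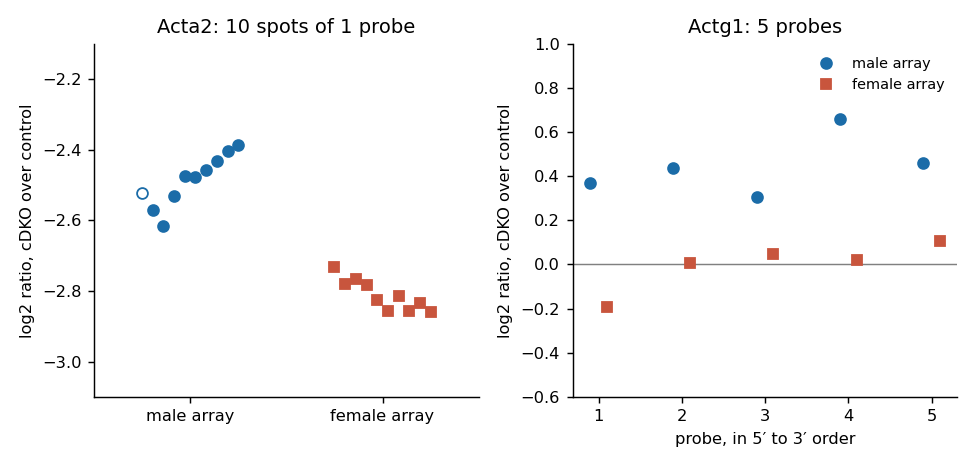
Log2 ratio of cDKO over control for the 10 Acta2 spots in order of spot number (left panel, the open circle being the outlier spot left out) and for the 5 Actg1 probes in 5′ to 3′ order (right panel), with circles for the male and squares for the female array. Acta2 spots run from -2.62 to -2.39 and from -2.86 to -2.73, and every Actg1 probe lies between -0.19 and 0.66.

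No actin spot was saturated, and all 4 RNAs were well above background at every actin, so the ratios are measured and not bounds. All 4 muscle actins passed the test in 8 other analyses with a test, several of which could not change the ratio of a gene with a single probe. They did not pass with the authors' deposited value table, where the log2 ratios were between -2.73 and -2.48 and the limma adjusted p was between 0.124 and 0.129. There 0 of 23437 genes passed with limma, and 2421 had an unadjusted p under 0.05.

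**Figure D4:**
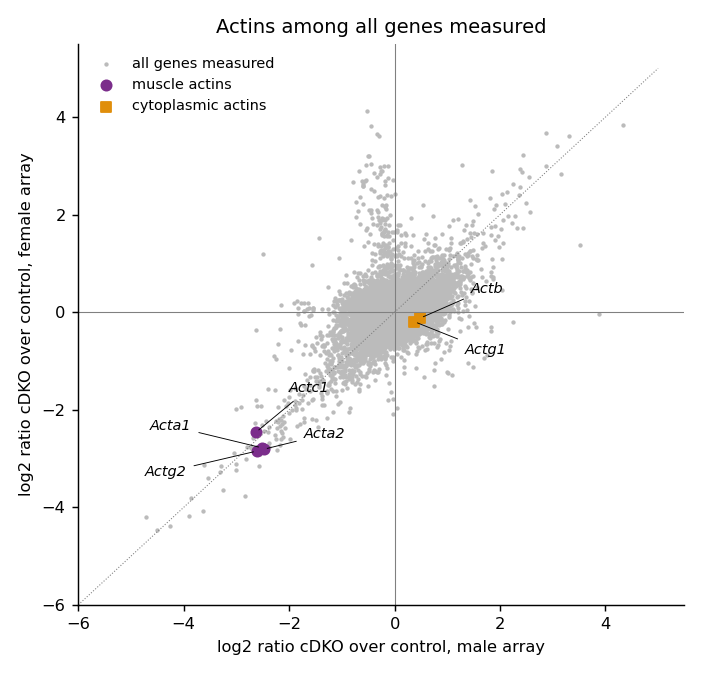
Log2 ratio of cDKO over control on the male array (horizontal) and the female array (vertical) for the 23437 genes measured (grey), the 4 muscle actins (purple circles) and the 2 cytoplasmic actins (orange squares); the dotted line marks equal ratios. The muscle actins sit together in the lower left, while Actb and Actg1 lie in the bulk, to the right of 0 on the male array and just under 0 on the female array.

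For each actin the 5 genes with the nearest pair of log2 ratios were taken from 18373 genes with a symbol, by Euclidean distance over the 2 arrays. The nearest gene to Acta1 was Acta2, and the reverse, at a distance of 0.043. The other genes nearest to Acta1 and to Acta2 were the same for both, namely Actg2, Dclk3, a doublecortin-like kinase, Tmod1, which caps the pointed ends of actin filaments, and Asb2, a ubiquitin ligase subunit of muscle. Actg2 lay nearest to Dclk3, at 0.083, followed by Acta1, then Tagln, the actin-binding smooth muscle protein transgelin, then Pcp4l1 and Acta2. Muscle actins were thus among one another's nearest genes, except for Actc1.

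Actc1 lay nearest to Ryr3, a calcium release channel of the sarcoplasmic reticulum, at a distance of 0.066. After it came Myh11, the smooth muscle myosin heavy chain, Rbfox3, an RNA-binding splicing factor, Rgs2, a regulator of G protein signalling, and Acsbg3. Ryr3 had log2 ratios of -2.68 and -2.42 and Myh11 of -2.69 and -2.58.

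Actb lay nearest to Slc25a22, a mitochondrial glutamate carrier, then Fam83d, Chst5, Ifrd2 and Vps72, at distances of 0.012 to 0.020. Actg1 lay nearest to Tmem220, Ppp6r1, Spry1, Mcur1 and Slc5a10, at distances of 0.0079 to 0.011. These are genes of unlike known roles in the crowded middle of the distribution. With 2 values per gene the distances are descriptions.

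Promoter sequences are shown because the muscle actins moved together and are known targets of serum response factor. RefSeq entries on GRCm38.p6 were matched for 4 of the 6 members, Acta1, Acta2, Actc1 and Actg1. Each is the 250 bases before the annotated start, on the minus strand, and capitals mark CArG boxes, strict or with 1 letter changed. They lie at chr8:123894776-123895025 (Acta1), chr19:34255374-34255623 (Acta2), chr2:114052876-114053125 (Actc1) and chr11:120348496-120348745 (Actg1).

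Acta1 promoter: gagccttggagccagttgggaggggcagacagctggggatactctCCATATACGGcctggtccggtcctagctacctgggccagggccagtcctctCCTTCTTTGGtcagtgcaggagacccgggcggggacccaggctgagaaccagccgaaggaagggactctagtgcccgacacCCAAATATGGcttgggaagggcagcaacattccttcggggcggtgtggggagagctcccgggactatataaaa
Acta2 promoter: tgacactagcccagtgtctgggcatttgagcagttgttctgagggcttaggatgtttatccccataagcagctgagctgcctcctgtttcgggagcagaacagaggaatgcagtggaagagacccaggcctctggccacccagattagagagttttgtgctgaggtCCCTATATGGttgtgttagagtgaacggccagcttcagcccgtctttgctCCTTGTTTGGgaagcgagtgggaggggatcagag
Actc1 promoter: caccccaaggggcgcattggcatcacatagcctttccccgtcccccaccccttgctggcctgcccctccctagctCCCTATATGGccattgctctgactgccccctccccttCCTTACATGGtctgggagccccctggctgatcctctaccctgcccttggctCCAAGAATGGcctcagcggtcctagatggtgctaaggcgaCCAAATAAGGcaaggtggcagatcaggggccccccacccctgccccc
Actg1 promoter: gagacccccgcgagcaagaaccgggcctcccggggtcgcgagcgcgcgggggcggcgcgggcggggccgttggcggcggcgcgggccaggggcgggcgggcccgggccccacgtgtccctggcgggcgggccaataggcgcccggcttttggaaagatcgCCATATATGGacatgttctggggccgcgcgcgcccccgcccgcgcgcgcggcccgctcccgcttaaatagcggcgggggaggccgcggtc

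A strict CArG box was found in 3 of these 4 windows, at -73 to -64 in Acta1, at -47 to -38 in Actc1 and at -90 to -81 in Actg1, counted from the annotated start. Among 32841 promoter windows of the same length 1.47% held one, on either strand. With up to 1 letter changed, Acta1 had 3 boxes, Acta2 had 2, Actc1 had 4 and Actg1 had 1, and 18.6% of all windows had at least 1. The strict box was thus present in the window of the cytoplasmic Actg1, which was not called, and absent from that of Acta2, whose boxes differ from the strict form by 1 letter.

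Other motifs were searched on both strands. The MCAT motif GGAATG was present in Acta1 and Acta2 and in 12.6% of all windows. TATAAA was in the Acta1 window, at -7 to -2 from the annotated start, and in 12.4% of all windows. The T-box core GTGTGA was in 0 of the 4 windows and in 12.3% of all. A match is a stretch of letters and not a measured binding site, and a missing one says only that these letters are not in this window.

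Genes that build and organise actin filaments mostly did not follow the muscle actins. Of 75 listed genes 73 were measured, and 2 rose and 6 fell, or 11% called, against 4.42% of all genes tested (2.17% higher and 2.25% lower). Their median log2 ratio was 0.080, and that of all genes was 0.0046.

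Among the monomer-binding proteins 2 of 12 fell. Cap2, a cyclase-associated protein that recycles monomers in striated muscle, had 1102 in cDKO and 3134 in control on the male array, and 854 in cDKO and 2436 in control on the female array. It fell by 1.47 ± 0.042 on the log2 scale (n = 2, limma adjusted p = 3.35e-05). Dstn, destrin, which severs filaments and binds monomers, had 44929 in cDKO and 110624 in control on the male array, and 31028 in cDKO and 67031 in control on the female array. It fell by 1.21 ± 0.057 (limma adjusted p = 0.000257). Its muscle relative Cfl2 had a mean of -0.48, and the monomer-sequestering Tmsb10 had 0.44, and neither passed.

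The nucleators start new filaments. Of 16 genes of the Arp2/3 complex, which builds branched networks, and its activators, 1 rose, Actr3b, a paralogue of the Arp3 subunit. Its signals were 462 in cDKO and 206 in control on the male array, and 386 in cDKO and 183 in control on the female array. Its mean log2 ratio was 0.99 ± 0.026 (limma adjusted p = 0.00151). Wasf1, Arpc4 and Cttn had means of 0.37 to 0.49 and did not pass. Of 15 formins and other nucleators 1 fell, Cobl, which nucleates unbranched filaments, with log2 ratios of -0.97 and -1.46 and a mean of -1.21 ± 0.34 (limma adjusted p = 0.000488). With the mean of its 2 probes the log2 ratio of Cobl was -0.61 (limma adjusted p = 0.0337). The 2 probes therefore differed, and the fall of Cobl rested on its brightest probe. The formins Fhod3, Fmnl3 and Fmnl2 had means of -0.63, 0.40 and 0.31, and none of the 3 passed. Fhod3 differed between arrays, with -0.31 for males and -0.96 for females.

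Of 15 capping, severing and pointed-end genes 2 fell. Tmod1 had 381 in cDKO and 2207 in control on the male array, and 280 in cDKO and 2037 in control on the female array. It fell by 2.57 ± 0.28 (limma adjusted p = 1.40e-07), a 5.95-fold change close to those of the muscle actins. Lmod1, leiomodin, which nucleates filaments in smooth muscle, was dim, with 42.9 in cDKO and 108 in control on the male array, and 18.7 in cDKO and 95.9 in control on the female array. It fell by 1.06 ± 0.57 (limma adjusted p = 0.00373), and its log2 ratio was -1.84 with the processed signals, where it did not pass (limma adjusted p = 0.0600). Tmod2, a relative of Tmod1, had 0.52 and the membrane-linked Svil -0.50, and neither passed.

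Of 9 bundling and crosslinking genes 1 rose, Fscn1, the bundling protein fascin of filopodia, with log2 ratios of 1.02 and 0.41 and a mean of 0.72 ± 0.43 (limma adjusted p = 0.0340). This call was lost in 4 of the 8 other analyses that used the scanner intensities. Actn4, Espn and Actn3 had means of 0.46 to 0.51 and did not pass. Naa80, which acetylates the actin N-terminus, had log2 ratios of 0.75 and 0.015, and Setd3, the actin histidine methyltransferase, had a mean of 0.080, and neither passed.

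**Figure D5:**
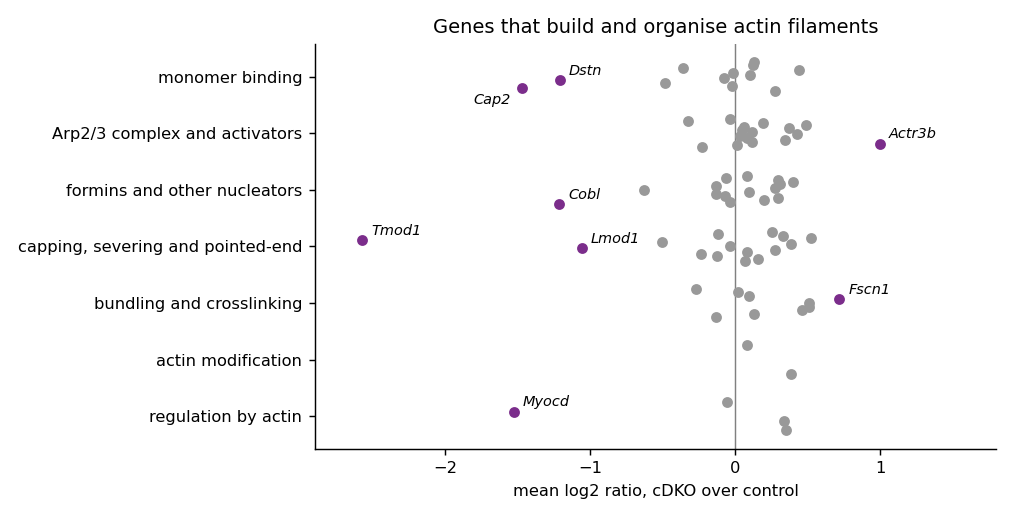
Mean log2 ratio of cDKO over control (horizontal) for the 73 measured genes of 7 classes of actin regulators, with 1 point a gene; purple named points had a limma adjusted p under 0.05 and grey points did not. Tmod1 at -2.57 stands far left of all others, and most genes lie near 0.

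Of the 4 genes that tie actin to transcription 1 fell. Myocd, myocardin, the smooth muscle partner of serum response factor, had 613 in cDKO and 1987 in control on the male array, and 582 in cDKO and 1618 in control on the female array. It fell by 1.53 ± 0.19 (limma adjusted p = 2.81e-05). Srf itself had log2 ratios of 0.27 and -0.39, Mrtfa of 0.67 and 0.037, and Mrtfb of 0.36 and 0.31, and none of the 3 passed. A lower transcript was therefore called for the muscle-restricted partner among these 4 genes. Some calls among the regulators depended on the processing: with the processed signals the limma adjusted p was 0.0537 for Dstn, 0.0615 for Actr3b and 0.0615 for Cobl, and with median centring Actr3b, Cobl and Lmod1 did not pass either (0.0968, 0.127 and 0.0797). Of the 8 calls 0 held with the deposited value table, with a limma adjusted p of 0.137 or more. Others passed only in some of the other analyses. Cfl2 passed with the mean of its probes (limma adjusted p = 0.0285) and with an intensity trend (0.0321), and Svil (0.0254) and Actn4 (0.0216) passed with the trend. Fhod3 passed with the filter on both RNAs, the mean of probes and robust eBayes (0.0384, 0.0496 and 0.0439).

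Markers of the cell types that could hold these actins were read in the same RNAs. Of 8 smooth muscle markers, which share Myocd and Lmod1 with the list above, 7 fell, with a median log2 ratio of -2.05. Their summed signal was 22.1% of control for males and 23.8% for females. Myh11 fell by 2.64 ± 0.075 (limma adjusted p = 7.16e-08), with 9619 in cDKO and 62580 in control on the male array, and 6733 in cDKO and 39734 in control on the female array.

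Defining markers of skeletal and heart muscle had low signals, although most were marked as well above background. Myod1, the skeletal muscle determination factor, had 29.6 in cDKO and 19.9 in control on the male array, and 14.3 in cDKO and 18.9 in control on the female array. Myog was between 4.58 and 10.9 in the 4 RNAs, Nppa, the atrial natriuretic peptide gene, between 35.4 and 70.4, and Nkx2-5, a heart transcription factor, between 12.5 and 43.6. Of 12 skeletal muscle markers 9 were measured and 2 fell, which are named after their values were seen. Tnnt3, fast skeletal troponin T, had log2 ratios of -1.07 and -1.21 (limma adjusted p = 0.000486), and Myh8, the perinatal myosin heavy chain, had -0.75 and -0.73 (0.0142). The list had a median log2 ratio of 0.011 and a summed signal of 100.4% and 88.7% of control on the male and the female array. These sums depend strongly on Actn3, whose signal was higher in cDKO. On the male array Actn3 gave 2547 of 3763 in cDKO and 1649 of 3747 in control. On the female array it gave 1797 of 2725 in cDKO and 1419 of 3073 in control. Without Actn3 the rest of the sum was lower in cDKO than in control on both arrays. Of 9 heart markers 8 were measured and 0 passed with limma. Unadjusted, 5 of the 8 had a limma p under 0.05, as did 3752 of all 23437 genes. The median was -0.18, and summed signals were 90.3% and 63.0% of control. Myl7, named after its values were seen, differed most between arrays, with log2 ratios of 0.047 (male) and -1.96 (female). Its part in the sums was not tested. Sums run over every listed gene on the array, unmeasured ones included.

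Other cell types also moved with the comparison. All 6 fibroblast markers rose, with summed signals of 203% and 202% of control, and all 3 measured of 6 kidney markers rose, with 497% and 253%. The 8 urothelial markers had summed signals of 122% and 113% of control, and the 7 pericyte and vascular muscle markers of 116% and 105%. With limma 0 of either list passed, and 1 and 5 had an unadjusted p under 0.05, against 3752 of all 23437 genes. Mean log2 ratios of the pericyte and vascular muscle list ran from -0.41 to 0.63. Upk3a, a urothelial plaque protein gene, had 93699 in cDKO and 77738 in control on the male array, and 70361 in cDKO and 65622 in control on the female array, with log2 ratios of 0.42 and -0.089. The part that these cell types have in the actin ratios was not tested.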

How the data were processed

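Total RNA of ureters was hybridised to 2 two-colour arrays. Per the file headers, Agilent Feature Extraction 10.7.3.1 gave a mean spot intensity, a background intensity and a processed (background-subtracted, dye-normalized) intensity per channel. The deposited log10 ratio is red over green. The value table deposited by the authors holds a score of unstated scale. Its values match a signed fold change of cDKO over control: 71.3% and 71.8% of gene values lay within 0.001 log2 of the processed ratio, the direction matched, no gene was centred, and column medians were 1. How low values were floored is not stated in the sources used here.

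From the scanner intensities, normexp (offset 50) and loess were applied in limma 3.58.1 (R 4.3.3). Outlier and control spots were left out and spots of a probe averaged. Probes well above background in cDKO or in control on both arrays were kept (29298 of 39429), and a gene took its brightest probe. The 2 ratios, turned to cDKO over control, were tested with lmFit and eBayes (two-sided, Benjamini-Hochberg over all kept probes, 0.05), with 1 residual and 13.9 prior degrees of freedom. RefSeq (GRCm38.p6) named 26412 probes, and the file's own symbol was kept for 13017. Only promoter coordinates are on GRCm38.p6; probe coordinates are on mm9. The number of arrays limits the precision. The script was tested on simulated data.

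Members and lists were chosen with earlier results of these data known. Named genes are the 6 actins, the 5 nearest genes of each, up to 4 genes per regulator class with the largest mean ratio and 1 direction on both arrays, and defining markers. Setd3, Srf, Tnnt3, Myh8, Myl7, Ddx3y, Eif2s3y, Tbx2, Tbx3 and Tbx18 fall outside this rule. Alternatives were processed signals, offset 0, median centring, other filters, the deposited table, mean of probes, trend or robust eBayes, a threshold of 0.01 and each array alone.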

Additional observations from a re-analysis of the deposited data

Results flagged for a closer look

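Actb and the brightest probe of Actg1 had opposite signs on the male and the female array. The log2 ratio of cDKO over control on the male array minus the female one was 0.61 for Actb and 0.56 for Actg1. The other 4 Actg1 probes were above 0 on both arrays, and the mean of the 5 was 0.45 and -0.0019. The difference was not tested, since each labelled sex has 1 array, and sex, dye orientation and replicate cannot be told apart. Opposite signs were found for 40.3% of all genes tested. With the processed signals Actb was 0.34 for males and 0.076 for females, and Actg1 was 0.27 and -0.014.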

How the results depend on the processing

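The log2 ratios of the muscle actins stayed between -2.73 and -2.45 in the 9 other analyses with a test. Each muscle actin has 1 probe, so other filters, the mean of probes, the trend and robust eBayes could not change its ratio. Only processed signals, offset 0, median centring and the deposited table could. The muscle actins passed in 8, with a limma adjusted p of at most 0.00674. With the deposited value table the ratios were -2.71 for Acta1, -2.63 for Acta2, -2.48 for Actc1 and -2.73 for Actg2, and 0 actins were called lower. The processed signals gave the same 4 ratios and all 4 calls; the cause was not tested. Actb and Actg1 did not pass in any of the 9, with means of 0.13 to 0.21 and 0.053 to 0.22. With each array alone the ratios ran from -2.78 to -2.52 for Acta1, -2.81 to -2.48 for Acta2, -2.63 to -2.46 for Actc1, -2.85 to -2.61 for Actg2, -0.12 to 0.48 for Actb and -0.19 to 0.37 for Actg1, and muscle minus cytoplasmic actin ran from -2.99 to -2.57; a single array has no test. Median centring spread the arrays, with Actb at 1.31 and -1.04 and Acta2 at -1.67 and -3.54. The means moved less, from -2.65 to -2.45 for Acta1 and from -2.65 to -2.61 for Acta2. Of the actin regulators 3 were called lower with processed signals and 0 with the deposited table, against 6 in the main analysis and 8 with the mean of probes or the intensity trend. Higher calls numbered 0 with processed signals, median centring and the deposited table, 1 with offset 0, no filter and a threshold of 0.01, and 3 with the trend, against 2. Over all genes the main analysis called 509 higher and 528 lower, the processed signals 130 and 204, median centring 163 and 157, the intensity trend 934 and 662, and 0 genes were called with the deposited table. The test was itself paired by array, since each ratio sets both RNAs of an array against each other, and no further pairing was used.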

Other observations

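Actin-related proteins outside the Arp2/3 complex are more distant relatives of the actins. The list of 15 genes holds such proteins of the dynactin complex, of chromatin remodelling and of the testis, and also the beta-actin-like Actbl2. Of these 15 genes 9 were measured. Their mean log2 ratios of cDKO over control ran from -0.29 to 0.33, and with limma 0 passed the test and 0 had an unadjusted p under 0.05. Of all 23437 genes 3752 had such an unadjusted p. The pseudogene Actg-ps1, chosen after its values were seen, had 2 probes. One gave log2 ratios of 0.41 (male array) and -0.090 (female array), and the other 0.41 and 0.23. Neither passed (limma adjusted p = 0.769 and 0.380).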
